A study of Mus musculus with 5 samples.

Results

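Stefins are small cytosolic inhibitors of papain-type cysteine proteases, and mice carry a tandem cluster of stefin A genes on chromosome 16 beside the single stefin B gene, Cstb, on chromosome 10. The genes described here are Stfa1, Stfa2, Stfa2l1, Stfa3 and BC100530 of the cluster, together with Cstb. They were chosen by name, through the gene identifiers of the count table, and make up 6 of its 52550 genes. Of these 6, 5 passed the filter on low counts, and Stfa2 did not.

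The libraries held 3′ RNA sequencing (QuantSeq) of Lin-cKit+Sca1- (KL) cells, a bone marrow fraction rich in committed myeloid progenitors, from male mice 20 weeks after tamoxifen. One group carried a conditional Bcor allele with an inducible Cre (scl-Cre-ERT+; Bcorfl/y), in which loss of exons 9 and 10 leaves a truncated protein (BcorΔE9-10, n = 3). The control group carried the same Cre with an intact allele (scl-Cre-ERT+; Bcorwt/y; BcorWT, n = 2), per the labels; the text of the study also counts littermates with the floxed allele alone as BcorWT. Both groups received tamoxifen at 1 mg per day for 5 days at an age of 3 to 6 months, and the Cre is driven by scl (Tal1) control elements directed at haematopoietic stem cells. The labels do not say whether each library came from a separate mouse, so p-values measure the spread between these libraries only. Total counts ranged from 5998924 to 8303999, and Bcor itself stood at 24.1 ± 3.00 CPM in BcorΔE9-10 against 14.0 ± 3.09 CPM, which does not check the labels because transcript ends do not read the deleted exons. CPM here are counts per 1000000 counts of the TMM-scaled library total, given as mean ± SD with n = 3 for BcorΔE9-10 and n = 2 for BcorWT.

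A stefin blocks a protease by inserting its amino terminus and a hairpin loop into the active-site cleft. Stefin B is made in most cell types, whereas the mouse stefin A genes are known as genes of the granulocytic lineage, where they are abundant in maturing neutrophils. Their targets include the lysosomal cathepsins B, H, L and S. The cluster arose by repeated gene duplication, and its copies are hard to tell apart by short reads.

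How alike the copies are was examined first, because it decides which counts can be assigned to 1 gene. In mm10, the cluster genes named by the rule run from 36156811 to 36455392 on chromosome 16, a span of 299 kb that holds Stfa2l1 (chr16:36156811-36161948, plus strand), Stfa1 (chr16:36277148-36285371, plus strand), BC100530 (chr16:36359382-36367748, minus strand), Stfa2 (chr16:36403946-36408363, minus strand) and Stfa3 (chr16:36450537-36455392, minus strand). Cstb lies at chr10:78425669-78427622 on the plus strand. Each has 3 exons in the annotated transcript used. BC100530 overlaps Gm15845 on the opposite strand, which had 0 counts in all 5 libraries, and no other member overlaps a gene of the table. The last 120 coding bases before the stop codon are shown because a 3′ method reads close to this end. Lower case letters match Stfa1 in a pairwise alignment and capitals mark the bases that do not. For Cstb 3 of the bases are unaligned, so the earlier part of its line does not match that of Stfa1 column by column. BC117090 and Gm5483 are cluster genes outside the rule that share sequence with the members, and the strand is that of the transcript, with the sequences from GENCODE M21.
Stfa1: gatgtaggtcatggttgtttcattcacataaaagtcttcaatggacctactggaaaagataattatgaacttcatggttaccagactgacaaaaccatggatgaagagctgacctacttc
BC100530: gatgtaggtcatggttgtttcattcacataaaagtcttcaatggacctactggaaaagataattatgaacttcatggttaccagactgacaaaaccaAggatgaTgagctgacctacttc
BC117090: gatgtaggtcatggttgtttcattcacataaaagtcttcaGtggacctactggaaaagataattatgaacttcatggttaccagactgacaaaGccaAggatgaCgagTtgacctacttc
Gm5483: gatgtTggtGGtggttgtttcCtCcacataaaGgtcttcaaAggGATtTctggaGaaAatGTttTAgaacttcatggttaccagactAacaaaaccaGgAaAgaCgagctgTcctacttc
Stfa3: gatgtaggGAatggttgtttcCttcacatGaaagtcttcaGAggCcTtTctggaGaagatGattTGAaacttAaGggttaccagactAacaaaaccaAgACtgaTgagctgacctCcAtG
Stfa2: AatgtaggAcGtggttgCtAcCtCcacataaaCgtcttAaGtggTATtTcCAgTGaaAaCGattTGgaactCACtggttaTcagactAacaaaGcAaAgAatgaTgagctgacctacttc
Stfa2l1: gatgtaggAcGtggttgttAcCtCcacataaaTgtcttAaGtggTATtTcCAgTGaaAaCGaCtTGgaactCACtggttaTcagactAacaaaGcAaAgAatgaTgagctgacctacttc
Cstb: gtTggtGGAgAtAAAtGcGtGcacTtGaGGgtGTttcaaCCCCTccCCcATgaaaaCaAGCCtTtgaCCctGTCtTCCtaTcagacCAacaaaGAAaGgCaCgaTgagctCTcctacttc
In this stretch BC100530 differed from Stfa1 at 2 bases and BC117090 at 5, against 23 for Gm5483, 24 for Stfa3, 33 for Stfa2, 32 for Stfa2l1 and 52 for Cstb.

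Over the whole coding sequence, Stfa1 and BC100530 were identical at 285 of 291 bases (97.94%), and their transcripts shared an unbroken run of 128 bases. Stfa2 and Stfa2l1 formed the other close pair, with 298 of 309 bases identical (96.44%) and a shared run of 97 bases. Stfa3 was more distant, at 84.54% identity to Stfa1, and Cstb was the outlying gene, at 58.08%. Of the 30-base words in its transcript, Stfa1 shared 51.7% with another gene, BC100530 56.4%, Stfa2l1 42.8% and Stfa2 34.4%. Stfa3 and Cstb shared none at this length. For words of 75 bases, the read length before trimming, the shares were 10.7% for Stfa1, 22.4% for BC100530, 7.8% for Stfa2l1 and 5.8% for Stfa2. The counts of these 4 genes can depend on how reads common to several copies were assigned, an option that is not given in the sources used here.

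**Figure D1:**
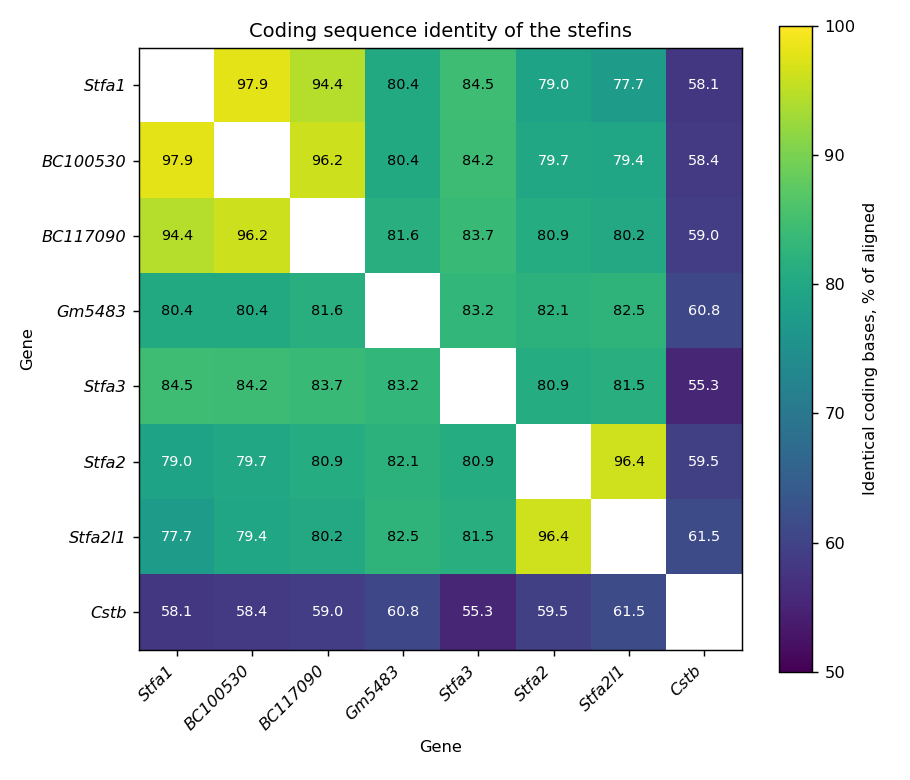
Coding sequence identity between stefin genes, as the percentage of aligned coding bases that are identical, for the 6 genes named by the rule and for BC117090 and Gm5483. Stfa1, BC100530 and BC117090 form 1 block (94.44 to 97.94%) and Stfa2 with Stfa2l1 another (96.44%), while Cstb stays under 62% to every other gene.

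The sequences before the transcription starts were compared because the cluster genes are duplicates that each carry their own promoter. RefSeq entries on GRCm38.p6 were found for 5 of the 6 members (BC100530 under its current name, Cstdc5) and for Gm5483 (Cstdc4). The GENCODE M21 start lies upstream of the RefSeq start by 197 bases for Stfa1, 178 for BC100530 and 94 for Stfa2, so their windows are partly or wholly exonic in that annotation and are not printed. For the other 3 genes the starts coincide, and the 150 bases before them are given on the strand of the gene, with a shared 9-base word in capitals. They lie at chr16:36455393-36455542 (Stfa3, minus strand), chr16:36156661-36156810 (Stfa2l1, plus strand) and chr16:36184062-36184211 (Gm5483, plus strand).
Stfa3: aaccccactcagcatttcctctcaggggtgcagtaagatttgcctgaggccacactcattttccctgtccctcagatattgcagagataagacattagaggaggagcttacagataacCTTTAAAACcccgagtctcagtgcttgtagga
Stfa2l1: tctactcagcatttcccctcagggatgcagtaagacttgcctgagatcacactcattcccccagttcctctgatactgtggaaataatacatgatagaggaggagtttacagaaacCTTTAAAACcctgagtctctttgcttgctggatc
Gm5483: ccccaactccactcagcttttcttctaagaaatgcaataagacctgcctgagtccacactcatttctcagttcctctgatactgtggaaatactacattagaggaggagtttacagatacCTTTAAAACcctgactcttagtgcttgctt
The word CTTTAAAAC stood in all 6 windows, between 34 and 22 bases before the RefSeq start in 5 of them and 10 to 2 bases before it in BC100530. The annotated starts disagree for Stfa1 and Stfa2 as well as for BC100530. Windows of 300 bases (250 before and 50 after the start) contained this word on either strand in 0.435% of 32851 RefSeq promoters. It was picked after the sequences had been read and contains TTTAAA, which was present in 13.162% of the windows. The canonical TATAAA was in none of the 6 (13.616% of all windows). The GATA word AGATAA was found in Stfa1 and Stfa3 at 2 places each and in BC100530 at 1, and in 11.178% of all windows. GAGGAA, an ETS word, was found in all 6 and in 28.276% of all windows, whereas TTGCNNAA, a CEBP word, was found in Stfa1 and BC100530 and in 10.797%. TTCNNNGAA, a word recognised by STAT and BCL6 proteins, was found in Gm5483 and in 8.298% of all windows. These are matches of letters, on both strands, and not measured binding. They include the windows of Stfa1, BC100530 and Stfa2, which are partly or wholly exonic in GENCODE M21. Because the genes are duplicates, the 6 windows are not separate cases to set against the percentages.

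The question asked of the counts was whether stefin genes differ between BcorΔE9-10 and BcorWT KL cells. Stfa1 was lower in BcorΔE9-10, and it was the only 1 of the 5 tested members that passed the test. Stfa3 and Cstb had fold changes of the same sign that missed the threshold, and BC100530 and Stfa2l1 had small fold changes of the opposite sign. All 11766 genes that passed the filter were tested together by limma-voom, with p-values adjusted by the Benjamini-Hochberg method, and a gene was called at an adjusted p under 0.05. With this test 4.09% of all genes tested were called lower and 10.1% were called in either direction, so 1 call among 5 members is not shown to exceed the background. No member was called higher by limma, by the quasi-likelihood test of edgeR or by DESeq2, and 0 had a positive fold change with an unadjusted p under 0.05 in any of these. A looser rule, an unadjusted p under 0.05 and a log2 fold change beyond 0.5, was passed downwards by 2 members, Stfa1 and Stfa3, and by 5.6% of all genes tested.

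**Figure D2:**
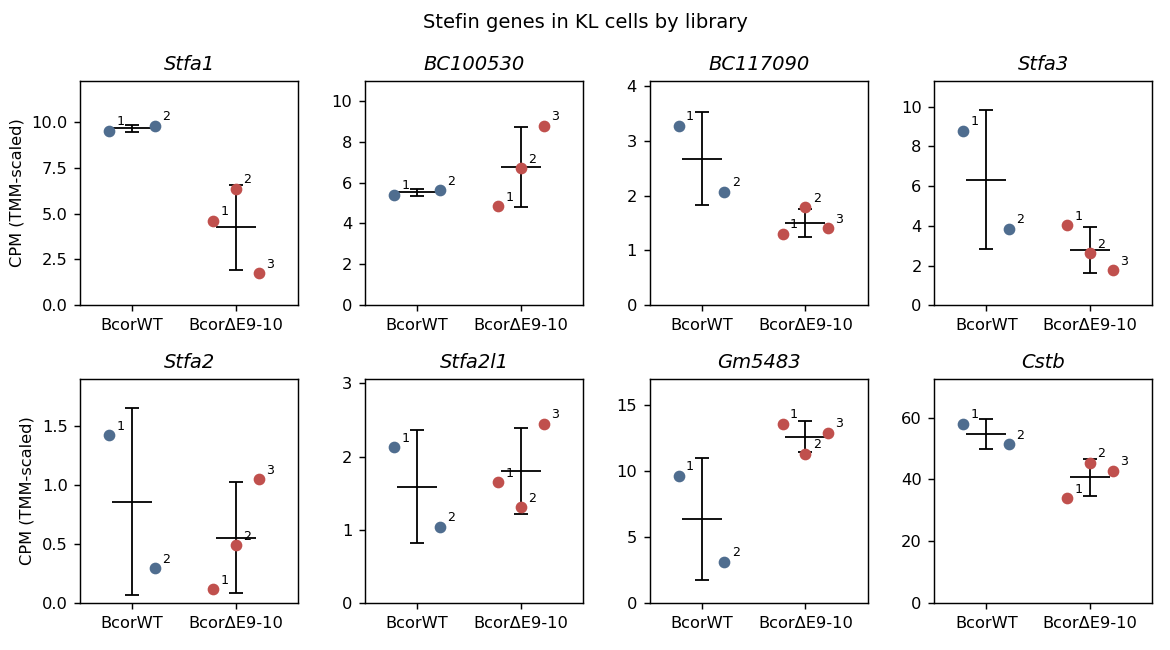
TMM-scaled CPM of the 6 members and of BC117090 and Gm5483 in each library, with the replicate number beside each point, the horizontal bar at the group mean and whiskers of 1 SD. All BcorΔE9-10 points lie below both BcorWT points for Stfa1, Cstb and BC117090, all lie above them for Gm5483, and the groups overlap for BC100530, Stfa3, Stfa2 and Stfa2l1.

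Stfa1, the first named stefin A gene, had 39, 39 and 15 counts in BcorΔE9-10 libraries 1 to 3 and 67 and 66 in BcorWT. In CPM this was 4.61, 6.36 and 1.75 CPM (4.24 ± 2.33) against 9.51 and 9.78 CPM (9.65 ± 0.187). The BcorWT libraries were nearly equal, the groups did not overlap, and BcorΔE9-10 library 3 was the lowest of all. The difference was -1.44 on the log2 scale (SE 0.392, 95% interval -2.27 to -0.61, limma adjusted p = 0.0273). The call was lost with edgeR (-1.21, adjusted p = 0.0602) and with DESeq2 (-1.22, adjusted p = 0.0690). It was also lost without BcorΔE9-10 library 3, where the log2 fold change was -0.87 (limma adjusted p = 0.140), and without BcorWT library 1 (-1.47, limma adjusted p = 0.0588).

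BC100530 is the gene whose coding sequence is closest to that of Stfa1 (6 bases apart, as shown above). It had 41, 41 and 75 counts in BcorΔE9-10 and 38 and 38 in BcorWT. Its level was 4.85, 6.69 and 8.77 CPM (6.77 ± 1.96) against 5.40 and 5.63 CPM (5.51 ± 0.166). Library 3 of BcorΔE9-10, the lowest library for Stfa1, was the highest for BC100530. The groups overlapped, and the log2 fold change of 0.25 (SE 0.342, 95% interval -0.47 to 0.97, limma adjusted p = 0.693) did not pass the test.

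Counts of this pair were therefore also read together, a summary chosen after the values had been seen. Stfa1 and BC100530 summed to 80, 80 and 90 counts in BcorΔE9-10 and to 105 and 104 in BcorWT, or 9.46, 13.1 and 10.5 CPM (11.0 ± 1.85) against 14.9 and 15.4 CPM (15.2 ± 0.353). On this scale BcorΔE9-10 library 3 lay between the other BcorΔE9-10 libraries, and the groups still did not overlap. Fitted as 1 gene, the pair had a log2 fold change of -0.49, and with BC117090 added of -0.55, compared with -1.44 for Stfa1 alone. The share of the pair's counts assigned to Stfa1 was 63.8% (95% Wilson interval 54.3 to 72.4) and 63.5% (53.9 to 72.1) in BcorWT. It was 48.8% (38.1 to 59.5) in each of BcorΔE9-10 libraries 1 and 2 and 16.7% (10.4 to 25.7) in library 3. The interval of library 3 did not meet that of any other library, and these intervals cover counting error only. The intervals of BcorΔE9-10 libraries 1 and 2 overlapped those of BcorWT. A lower Stfa1 beside an unchanged BC100530 would also reduce this share and the fold change of the pair. The share and the sum therefore cannot tell such a change from a different assignment of reads between the copies, which was not tested.

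**Figure D3:**
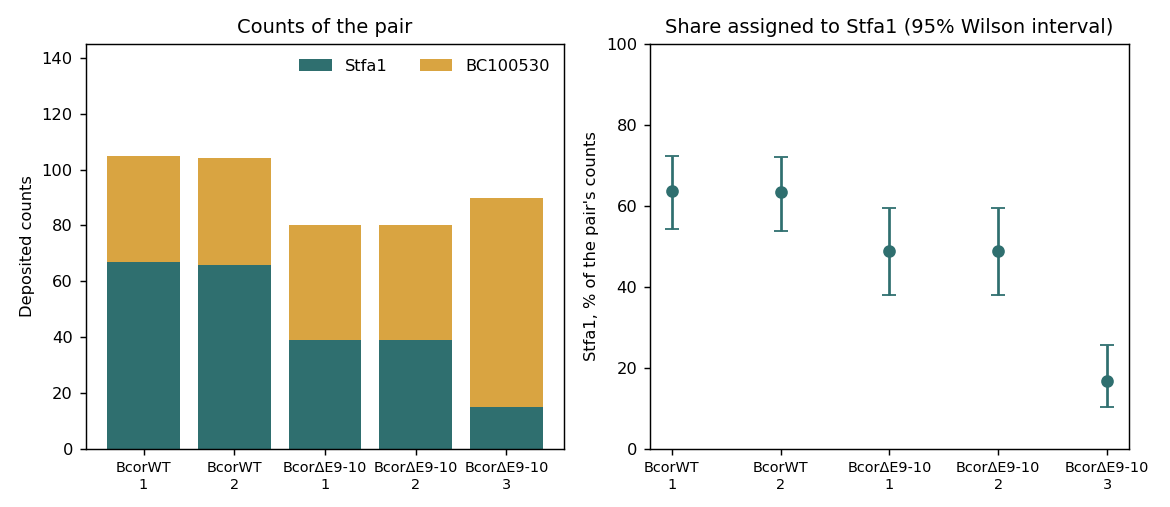
Left, deposited counts of Stfa1 and BC100530 stacked for each library. Right, the percentage of the pair's counts assigned to Stfa1 with 95% Wilson intervals: 63.5 to 63.8% in BcorWT, 48.8% in BcorΔE9-10 libraries 1 and 2 and 16.7% in library 3.

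Stfa3, which shares no 30-base word with another gene, had 34, 16 and 15 counts in BcorΔE9-10 and 62 and 26 in BcorWT. Its level was 4.02, 2.61 and 1.75 CPM (2.79 ± 1.14) against 8.80 and 3.85 CPM (6.33 ± 3.50). BcorWT library 1 stood well above the other libraries, and BcorWT library 2 fell within the BcorΔE9-10 range. The log2 fold change was -1.14 (SE 0.457, 95% interval -2.10 to -0.17), with an unadjusted p of 0.0239 in limma and an adjusted p of 0.129. BcorWT library 1 carried much of this value, since without it the log2 fold change was -0.54 (limma adjusted p = 0.650). Without BcorWT library 2 it was -1.71 and passed the test (limma adjusted p = 0.0122).

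Stfa2 and Stfa2l1, the other near-identical pair, were close to the limit of detection. Stfa2 had 1, 3 and 9 counts in BcorΔE9-10 and 10 and 2 in BcorWT (0.118, 0.490 and 1.05 against 1.42 and 0.296 CPM), so in 3 of 5 libraries it lay at or under 3 counts, the upper limit that a count of 0 allows. It failed the filter and was not tested. Stfa2l1 had 14, 8 and 21 counts against 15 and 7, or 1.65, 1.31 and 2.45 CPM (1.80 ± 0.589) against 2.13 and 1.04 CPM (1.58 ± 0.773). Its groups overlapped, with a log2 fold change of 0.24 and a 95% interval from -1.04 to 1.53 (limma adjusted p = 0.847), so no difference was detectable at this depth. Summed, the pair came to 15, 11 and 30 counts against 25 and 9, with a fitted log2 fold change of 0.05.

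Cstb, the stefin that is not part of the cluster, was read most deeply, with 287, 278 and 366 counts in BcorΔE9-10 and 409 and 347 in BcorWT. Its level was 33.9, 45.4 and 42.8 CPM (40.7 ± 6.00) against 58.1 and 51.4 CPM (54.7 ± 4.71). Each BcorΔE9-10 library was below each BcorWT library. Among the 5 tested members this held for 2, Stfa1 and Cstb, and it held for 20.3% of all genes tested. The log2 fold change of Cstb was -0.45 (SE 0.157, 95% interval -0.78 to -0.11), with an unadjusted p of 0.0116 in limma and an adjusted p of 0.0841. Under 14 other settings it stayed negative, from -0.53 to -0.30, and passed the test in none (adjusted p from 0.0531 to 0.322).

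The 5 stefin A members summed to 129, 107 and 135 counts in BcorΔE9-10 and 192 and 139 in BcorWT, or 15.2, 17.5 and 15.8 CPM (16.2 ± 1.16) against 27.3 and 20.6 CPM (23.9 ± 4.72). The groups did not overlap, and the ratio of the means was -0.57 on the log2 scale. Without BcorWT library 1 this ratio was -0.35, and without BcorWT library 2 it was -0.75. With the other cluster genes added it was -0.11. BC100530 made up 19.8% and 27.3% of the summed stefin A counts in BcorWT and 31.8%, 38.3% and 55.6% in BcorΔE9-10. Stfa1 made up 34.9% and 47.5% in BcorWT and 30.2%, 36.4% and 11.1% in BcorΔE9-10.

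Other stefin A-like genes were examined from a list of 9, of which 8 were in the table, 5 of them in or beside the cluster and 3 on other chromosomes, and 2 passed the filter. Neither was called by limma, edgeR or DESeq2, and 1 of them, Gm5483, had an unadjusted p under 0.05 in each. Gm5483, another stefin A copy (chr16:36184212-36188111, plus strand), had 115, 69 and 110 counts in BcorΔE9-10 and 68 and 21 in BcorWT. Its level was 13.6, 11.3 and 12.9 CPM (12.6 ± 1.19) against 9.66 and 3.11 CPM (6.38 ± 4.63), higher in every BcorΔE9-10 library than in either BcorWT library. The log2 fold change of 1.17 (SE 0.367, 95% interval 0.40 to 1.95) had a limma adjusted p of 0.0517. It passed the test in 4 of 14 other settings. Its extremes were 0.39, when BcorWT library 2 was left out, and 1.99, when BcorWT library 1 was. BC117090, the third gene of the Stfa1 group (chr16:36321665-36334332, minus strand), had 11, 11 and 12 counts against 23 and 14, a log2 difference of -0.82 with an SE of 0.523 (limma adjusted p = 0.345). Its groups did not overlap. 2010005H15Rik had 12, 0 and 6 counts against 6 and 1 and was not tested, and the other 5 genes of the list in the table had 0 counts in every library.

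Genes around the cluster were examined next. Of the 14 genes tested within 500 kb of the cluster, 1 was called lower, Hcls1, which encodes a haematopoietic actin-regulating adaptor and lies 480 kb away (-0.60, limma adjusted p = 0.00535; -0.43 and adjusted p = 0.0772 without BcorWT library 1). Of the others 8 had positive and 5 negative fold changes, and the median log2 fold change of the 14 was 0.14, against 0 for all genes tested. Their summed level was 285 to 302 CPM in BcorΔE9-10 and 347 to 385 CPM in BcorWT, a difference carried by Hcls1. Without it the other 13 summed to 152, 153 and 147 CPM against 140 and 155 CPM, and the groups overlapped.

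**Figure D4:**
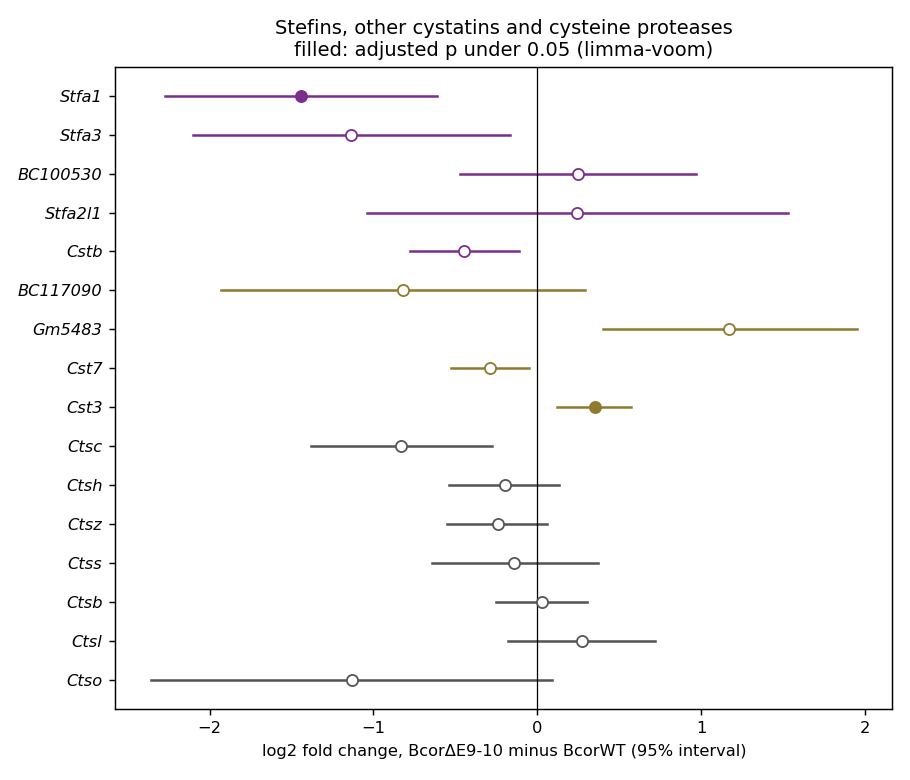
Log2 fold changes (BcorΔE9-10 minus BcorWT) with 95% intervals for the 5 tested stefin members, other cluster genes and cystatins, and 7 cysteine proteases. Filled points had a limma adjusted p under 0.05: Stfa1 (-1.44) and Cst3 (0.35).

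Other cystatins and the proteases that stefins inhibit were read beside the members. Of 15 other cystatin family genes, 11 had 0 counts and 3 were tested. Cst3, the secreted cystatin C, was called higher, at 363, 368 and 332 CPM (355 ± 19.4) in BcorΔE9-10 against 263 and 295 CPM (279 ± 22.7). Its log2 fold change was 0.35 (limma adjusted p = 0.0489), and the call was lost with edgeR (adjusted p = 0.0575), with DESeq2 size factors (limma adjusted p = 0.0586) and without any 1 of BcorΔE9-10 libraries 1, 2 and 3 or BcorWT library 1 (limma adjusted p = 0.151, 0.0913, 0.0793 and 0.299). Cst7, the leukocystatin of myeloid and cytotoxic cells, differed by -0.29 on the log2 scale (limma adjusted p = 0.118). Cst3, an inhibitor of the same protease class, thus had the opposite sign to Stfa1 and Cstb.

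Of 11 cysteine proteases listed, 7 were tested and limma called 0, with 1 at an unadjusted p under 0.05 and 1 called lower by both edgeR and DESeq2. That gene was Ctsc, the dipeptidyl peptidase that activates granule serine proteases, at 11.7, 15.2 and 12.2 CPM in BcorΔE9-10 against 16.3 and 31.9 CPM. Its log2 fold change was -0.83 (limma adjusted p = 0.0523), with adjusted p = 0.0354 in edgeR and 0.0271 in DESeq2, and it was called in 9 of 14 other settings, among them limma with DESeq2 size factors and with each other filter. BcorWT library 2 carried much of the difference: without it the log2 fold change was -0.35 (limma adjusted p = 0.453), and without BcorWT library 1 it was -1.32 (limma adjusted p = 0.00129). The direct stefin targets had values nearer to 0. The log2 fold changes were 0.03 for Ctsb, -0.20 for Ctsh, 0.27 for Ctsl and -0.14 for Ctss, all with limma adjusted p over 0.4. The median over the 7 tested proteases was -0.20.

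Since stefin A genes are used by maturing neutrophils, genes of the same stage were set beside them. Of 17 late neutrophil genes all were tested, and 10 were called lower and 0 higher by limma. Among all genes tested 4.09% were called lower. The median log2 fold change of the 17 was -0.63, and 9 to 12 were called lower under 14 other settings. This list was chosen with earlier results of these data known. Camp, which encodes the antimicrobial peptide cathelicidin, had a positive fold change that missed the threshold (0.25, limma adjusted p = 0.114) and passed it in 6 of the 14. The log2 fold change was -0.81 for Ltf (lactoferrin; limma adjusted p = 7.34e-05). It was -0.61 for S100a8 (a calprotectin subunit; adjusted p = 7.95e-05), -0.68 for Ngp (a cathelicidin-related granule protein; adjusted p = 0.000242) and -0.63 for Chil3 (a chitinase-like protein; adjusted p = 0.000723). Lcn2 (a siderophore-binding granule protein) stood at -0.63 (adjusted p = 0.00109) and Cd177 (a neutrophil surface protein) at -0.64 (adjusted p = 0.00117), all by limma. The summed level of the 17 genes was 154000 to 178000 CPM in BcorΔE9-10 and 222000 to 234000 CPM in BcorWT. Most of it came from S100a8 (68100 to 80600 against 110000 to 117000 CPM) and S100a9 (38400 to 44200 against 53200 to 57600 CPM). None of the 6 primary granule genes, which are made at an earlier stage, was called by limma, edgeR or DESeq2, with 1 at an unadjusted p under 0.05 in each and a median log2 fold change of 0.07. Ctsg (cathepsin G) was called higher in 6 of 14 other settings, among them without BcorWT library 2 (0.53, limma adjusted p = 0.0107), and Prtn3 (a granule serine protease) was called lower without BcorWT library 1 (limma, -0.42 with adjusted p = 0.0302). The log2 fold changes of the summed stefin A genes (-0.57), of Cstb (-0.45) and of the late neutrophil median (-0.63) are given side by side with no test between them, and the summed value depended on which copies and libraries entered it (-0.11 with the other cluster genes, -0.35 without BcorWT library 1 and -0.75 without BcorWT library 2). Single cluster genes ranged from -1.44 (Stfa1) to 1.17 (Gm5483).

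Markers of the sort and of other cell types were read in the same fit, where 4.09% of all genes tested were called lower and 10.1% in either direction. Ly6g, a defining marker of neutrophils that the lineage depletion should remove, was present at 228, 208 and 222 CPM in BcorΔE9-10 and at 570 and 321 CPM in BcorWT (-0.97, limma adjusted p = 0.00204). It was called in all 14 other settings, with -1.37 when BcorWT library 2 was left out and -0.55 when BcorWT library 1 was. Itgam (CD11b), the other tested marker that the depletion targets, stood at 120, 122 and 132 CPM against 96.4 and 96.5 CPM, a log2 difference of 0.37 (limma adjusted p = 0.0618). Its sign was lost in 1 of 14 other settings, and it was called in 1, total counts alone. The 6 mature neutrophil markers summed to 1360 to 1520 CPM in BcorΔE9-10 and to 3610 and 1520 CPM in BcorWT libraries 1 and 2, with 2 of 6 called lower by limma (1 without BcorΔE9-10 library 2 or 3 or BcorWT library 1, and 4 without BcorWT library 2). BcorWT library 1, the highest library for Stfa3, Stfa2, Cstb and BC117090, was also the highest for these markers. Stfa1 was highest in BcorWT library 2, BC100530 and Stfa2l1 in BcorΔE9-10 library 3, and Gm5483 in BcorΔE9-10 library 1. Of the 4 genes expected in KL cells, 1 was called, Kit, which was higher in BcorΔE9-10 (51.0 against 18.9 CPM, limma log2 fold change 1.43). The other 3 were near 0, at -0.02 for Cd34, -0.09 for Mpo and 0.12 for Elane. The eosinophil, basophil and mast cell markers summed to 391 to 564 CPM against 974 to 1270 CPM, with 5 of 6 called lower. Of the monocyte and macrophage markers 1 of 6 was called lower (sums of 1070 to 1190 against 1430 to 1440 CPM), and 0 without BcorΔE9-10 library 1 or 3 or BcorWT library 1. The erythroid markers summed to 30.1 to 127 CPM against 10.1 to 28.0 CPM, with 1 of 3 tested called higher (3 without BcorΔE9-10 library 1 and 0 without any other single library). The B cell markers summed to 9.69 to 18.6 CPM against 6.96 to 12.2 CPM, with Ms4a1 at 0 and none of 4 tested called by limma, edgeR or DESeq2 (1 at an unadjusted p under 0.05 in each). The part of these cells in the stefin values was not tested, and in such bulk libraries fewer cells of a type and less RNA per cell cannot be told apart.

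The genes whose levels over the 5 libraries were most like the summed stefin A level were sought among the 6837 tested genes whose mean log2 CPM reached 3, by the root mean square difference of centred log2 CPM. They were Hsp90aa1, the inducible cytosolic chaperone (0.0530), Traf3ip3 (0.0537), Hpcal1 (0.0641), Amz2 (0.0672) and Scrn2 (0.0750). Their log2 fold changes, from -0.57 to -0.48, and their peak in BcorWT library 1 follow from this choice and are no separate result.

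**Figure D5:**
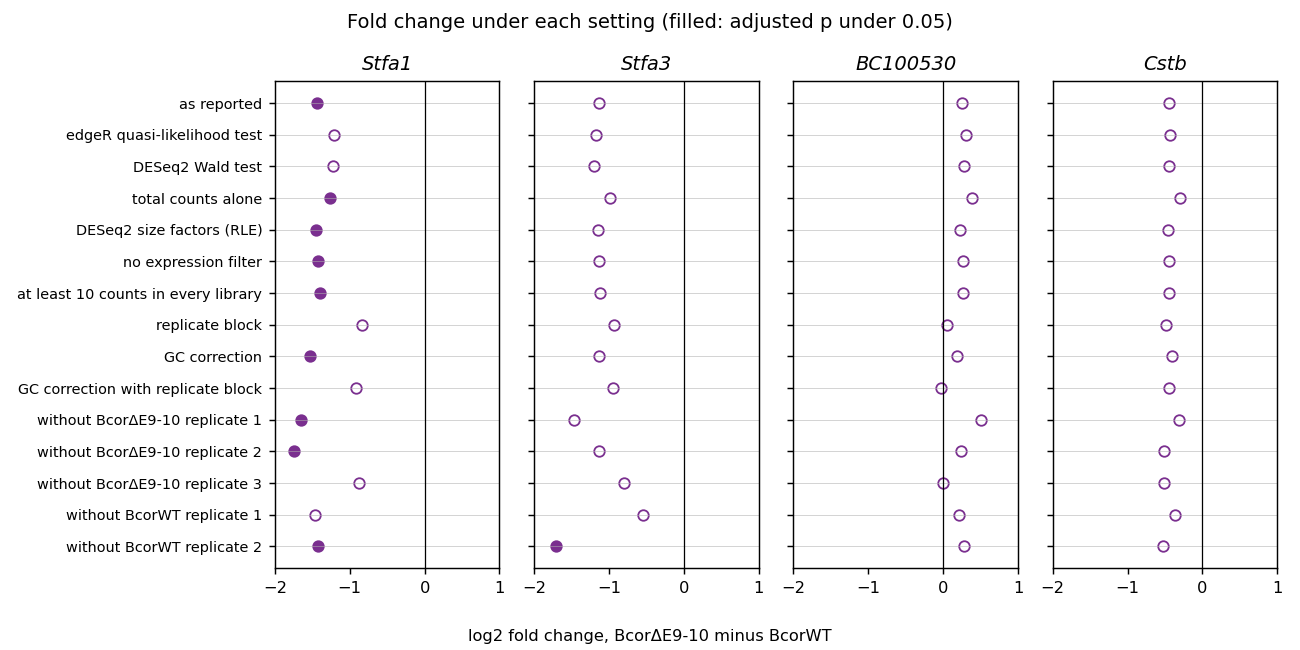
Log2 fold change of Stfa1, Stfa3, BC100530 and Cstb (horizontal axis) under the reported fit and 14 other settings, with filled points where the adjusted p was under 0.05. Stfa1 stayed negative throughout, from -1.74 to -0.83, and was called in 8 of the 14; Stfa3 was called only without BcorWT replicate 2, and BC100530 ranged from -0.026 to 0.50.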

How the data were processed

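QuantSeq 3′ libraries of KL cells were used for 3 BcorΔE9-10 and 2 BcorWT samples, grouped by sample title. Per the labels and the study's methods, the authors trimmed reads with cutadapt (the sources give different versions), aligned them to mm10 with HISAT2 and counted them per gene with featureCounts (Subread 1.5.0-p3); the deposited values are raw counts. Options for multiply aligned reads and strand are not given in the sources used here, so counts of near-identical stefin copies may be divided in a way that does not follow transcription. Here, genes were filtered with filterByExpr of edgeR 4.0.16 (minimum count 10, minimum total 15), scaled by TMM and tested two-sided with limma 3.58.1 (voom) in R 4.3.3; edgeR's quasi-likelihood test and DESeq2 1.42.0 were alternatives, as were other scalings, filters, a replicate block, a GC correction (lowess span 0.3) and fits that each left out 1 library.

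No pair of libraries within a group agreed within sampling noise (chi-square of 5.69 to 10.8 per gene), so none was treated as a repeat deposit of another. Depth was 5998924 to 8303999 counts, and 3 counts, the upper limit that a count of 0 allows, equal 0.361 to 0.500 per 1000000 counts. Wilson intervals cover counting error only. In simulated counts, limma recovered 150 of 194 changed genes among 11489, with 10 false calls. Among genes given the larger of the planted changes, 89 of 98 were recovered. All planted changes were larger than that of Cstb, and no separate rate was computed for genes with few counts. Sequence sharing was computed from GENCODE M21 transcripts and promoters were taken from RefSeq. The rule for named genes took all 6 members, up to 6 called genes per list by adjusted p, up to 4 abundant genes not called, and the 5 genes most like the summed stefin A level. The members and lists were chosen with earlier results of these data known.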

Additional observations from a re-analysis of the deposited data

How the results depend on the processing

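Of the members, only Stfa1 was called, and the count of members called lower was 0 with edgeR, DESeq2, the replicate block, GC correction with the block, without BcorΔE9-10 replicate 3 and without BcorWT replicate 1, and 2 without BcorWT replicate 2 (0 to 2 over libraries left out). The log2 fold change of Stfa1 was -1.21 with edgeR (adjusted p = 0.0602), -1.22 with DESeq2 (adjusted p = 0.0690), -0.83 with the replicate block (limma adjusted p = 0.136), -0.92 with GC correction and the block (limma adjusted p = 0.0933) and -1.74 to -0.87 with 1 library left out. Settings chosen after seeing the data, which summed it with BC100530 and then also with BC117090, gave -0.49 and -0.55; summing Stfa2 with Stfa2l1 gave 0.05. Stfa3 ranged from -1.71 to -0.54 with 1 library left out. Stfa2l1, at 0.24, turned to -0.12 with the block and -0.16 with GC correction and the block, and ranged from -0.23 (without BcorWT replicate 2) to 0.75; it was -0.017 without BcorΔE9-10 replicate 3. BC100530, at 0.25, turned to -0.026 with GC correction and the block and to -0.002 without BcorΔE9-10 replicate 3, with 0.50 the highest value. Cstb kept its sign and its side of the threshold in all 14. The cause of these shifts was not tested.

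The replicate numbers share only a number: same-numbered libraries deviated with correlations of 0.07 and 0.076 over 2 pairs. The block gave 1454 calls over all genes against 1189, and leaving out 1 library gave 558 to 1200. Total counts alone shifted the median of all genes by 0.14. The summed stefin A ratio was -0.11 with the other cluster genes added and -0.75 to -0.35 with 1 library left out. Medians of lists moved as follows: other cluster genes, -0.81 to 1.23 with 1 library left out; other cystatins, 0.49 with total counts, 0.032 with no filter, 0.034 with at least 10 counts in every library, 0.48 after GC correction alone and 0.53 with both this correction and the block; primary granule genes, 0.22 with total counts; neighbours, 0.29 with total counts, 0.099 with at least 10 counts in every library and 0.021 to 0.21 with 1 library left out. Depth limits Stfa2 and Stfa2l1, at 1 to 21 counts.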
